A study of Homo sapiens with 8 samples.

Results

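The 49 genes described here act at the passage from G1 into S phase and in DNA replication, and were taken by name from the list of G1/S cyclins, E2F factors and replication proteins. All 49 were found among the 58735 genes of the count table, and all 49 passed the filter on low counts, which left 15790 genes. RNA was sequenced from SW480, a human colorectal adenocarcinoma line, in 4 libraries of cells that stably overexpressed SPOCK1 with a FLAG tag and 4 libraries of cells with a control vector. SPOCK1, or testican-1, is a proteoglycan that cells secrete into the matrix, and the title of the series names Wnt/β-catenin signalling as its subject. Lentiviral infection was followed by puromycin at 4 µg/ml, and selection lasted until SPOCK1 protein was seen on a blot, per the labels. Nothing in the labels says that libraries with the same treatment stem from different cultures or infections. The p-values therefore measure the spread between these libraries only, and that spread may be technical. A difference that arose between the 2 selected populations for another reason cannot be told apart from one caused by SPOCK1.

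D-type cyclins with CDK4 or CDK6, and later E-type cyclins with CDK2, phosphorylate the retinoblastoma protein, which frees E2F factors to activate genes of DNA synthesis. Replication origins are marked by the origin recognition complex, loaded with the MCM helicase by CDC6 and CDT1, and fired when CDC45 and the GINS complex join the helicase. In most colorectal tumours, SW480 among them, APC is mutated and β-catenin signalling is active, and CCND1 is a widely cited target of that pathway.

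None of the 49 genes passed the test between SPOCK1-overexpressing and vector cells (edgeR quasi-likelihood test, adjusted p of 0.124 to 0.998). Over all genes tested, 1.04% were called at an adjusted p under 0.05, with 39 genes higher (0.247%) and 126 lower (0.798%) in SPOCK1 libraries. The largest log2 fold change among the 49 was 0.39 for ORC6, a subunit of the origin recognition complex, and the lowest was -0.15 for CDK6. Of 10 inhibitors of the G1/S step outside the 49, 1 was called. It was the CDK inhibitor CDKN1C, lower by 0.51 on the log2 scale (adjusted p = 0.0138, edgeR). The call was lost when SPOCK1 library 2 or 3 or vector library 2 was left out. The promoters of 22 of the 42 genes with a listed promoter held an E2F motif, 52.4% of them, against 3.99% of all genes in the promoter table.

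SPOCK1 itself had 6719, 7828, 9712 and 8964 counts in the 4 SPOCK1 libraries, against 6, 0, 3 and 6 counts in the 4 vector libraries. Library totals were 35643585 to 42812951 counts in SPOCK1 cells and 36390186 to 41343049 counts in vector cells. Among 10 colon epithelial markers 7 were tested, with KRT8, KRT18, KRT19, EPCAM, VIL1, CDX2 and CDH1 present, while KRT20, CDH17 and CDX1 had at most 7 counts in any library. In CPM (read counts scaled to a common library total), markers of immune, stromal and endothelial cells summed to 9.79 to 10.9 CPM in SPOCK1 libraries and 8.85 to 11.4 in vector libraries over 10 genes. PTPRC, which marks leukocytes, had at most 2 counts in any library. CDH1, the epithelial cadherin, fell by 0.67 ± 0.11 on the log2 scale (SE, adjusted p = 0.0054, edgeR), with 9.79 to 12.6 CPM in SPOCK1 libraries and 16.3 to 19.4 CPM in vector libraries, and no other epithelial marker passed the test. VIL1, a protein of microvilli, was below all vector libraries in every SPOCK1 library, with 58.7 to 75.3 CPM in SPOCK1 libraries and 75.7 to 83.1 CPM in vector libraries (log2 fold change -0.27 ± 0.09, adjusted p = 0.197). CDX2, an intestinal transcription factor, had -0.16 ± 0.09 (adjusted p = 0.452). The summed CPM of the 10 epithelial markers, most of it from KRT8, KRT18 and KRT19, was 14673 to 15772 in SPOCK1 libraries and 13609 to 15711 in vector libraries. Marker sums used raw library totals, unlike the CPM of single genes. Ribosomal RNA genes took 0.560% to 0.670% of counts in SPOCK1 libraries and 0.696% to 0.738% in vector libraries, without overlap, and the part of these differences in the results was not tested.

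The E2F motif was searched because E2F sites are the textbook feature of promoters of this kind, and the rule that chose the genes did not use it. Its 4 spellings were TTTGGCGC, TTTCCCGC, TTTGCCGC and TTTCGCGC, read on both strands from 250 bases before to 50 bases after the start site in RefSeq promoters of GRCh38.p14. A match stood in 3.315% of all 35116 promoters, counted per promoter and not per gene. CCND1, CCND2, CCNE2, CDK2, MCM4, MCM5 and GINS4 had no entry. Matches stood in 6 of 8 licensing genes, all 3 E2F genes, 3 of 5 genes of helicase activation, 5 of 11 genes of the polymerase and clamp group and 1 of 5 G1 regulators with an entry. A further list of 43 G1/S and replication genes with a promoter held 14, or 32.6%, and 22 genes of mitosis held 3, or 13.6%. Of 9 inhibitors of the G1/S step with a promoter, 1 held a match, or 11.1%. The share over all genes was not matched for the GC content of promoters or for expression.

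The 30-base windows that follow show 1 match in each of 13 genes, spread over all roles, with the motif in capitals on the strand of the gene.
CDC25A, chr3:48188443-48188472, minus strand: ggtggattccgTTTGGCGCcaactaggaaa
E2F2, chr1:23531257-23531286, minus strand: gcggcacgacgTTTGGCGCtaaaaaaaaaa
E2F3, chr6:20401815-20401844, plus strand: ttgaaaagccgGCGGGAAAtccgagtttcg
CDC6, chr17:40287875-40287904, plus strand: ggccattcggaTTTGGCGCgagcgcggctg
CDT1, chr16:88803743-88803772, plus strand: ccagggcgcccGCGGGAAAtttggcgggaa
MCM2, chr3:127598402-127598431, plus strand: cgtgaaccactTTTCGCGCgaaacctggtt
MCM3, chr6:52284728-52284757, minus strand: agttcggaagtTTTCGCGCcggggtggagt
MCM7, chr7:100101388-100101417, minus strand: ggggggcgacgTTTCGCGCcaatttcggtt
GINS2, chr16:85688967-85688996, minus strand: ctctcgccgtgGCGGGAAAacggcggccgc
POLE, chr12:132687342-132687371, minus strand: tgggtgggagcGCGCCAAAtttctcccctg
PCNA, chr20:5126663-5126692, minus strand: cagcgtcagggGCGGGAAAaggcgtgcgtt
TYMS, chr18:657603-657632, plus strand: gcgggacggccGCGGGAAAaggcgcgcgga
CLSPN, chr1:35769965-35769994, minus strand: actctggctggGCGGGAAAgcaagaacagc

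Of 30 matches in the 49 genes' promoters, 20 began between 60 bases before and 10 bases after the start site. The motif overlaps itself on the other strand in MCM2 and MCM6, where a single element counts as 2 matches. MCM6 and E2F1 carry more than 1 match, as do MCM2, MCM3, MCM7 and, over its listed promoters, UHRF1. ORC6, the gene with the largest difference between the groups, carries none. The 250 bases before the start site of MCM6, E2F1 and ORC6 are given with matches in capitals.
MCM6, chr2:135876444-135876693, minus strand: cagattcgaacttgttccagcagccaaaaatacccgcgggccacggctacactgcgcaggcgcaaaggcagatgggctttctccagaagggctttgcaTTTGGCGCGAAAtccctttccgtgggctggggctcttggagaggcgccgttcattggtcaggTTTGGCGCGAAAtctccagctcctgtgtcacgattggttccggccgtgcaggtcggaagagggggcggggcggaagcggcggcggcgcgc
E2F1, chr20:33686386-33686635, minus strand: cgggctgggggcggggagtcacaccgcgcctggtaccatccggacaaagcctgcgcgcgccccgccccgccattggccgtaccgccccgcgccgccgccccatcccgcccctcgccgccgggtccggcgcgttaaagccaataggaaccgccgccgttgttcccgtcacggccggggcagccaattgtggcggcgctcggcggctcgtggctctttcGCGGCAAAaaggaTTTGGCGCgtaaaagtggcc
ORC6, chr16:46689409-46689658, plus strand: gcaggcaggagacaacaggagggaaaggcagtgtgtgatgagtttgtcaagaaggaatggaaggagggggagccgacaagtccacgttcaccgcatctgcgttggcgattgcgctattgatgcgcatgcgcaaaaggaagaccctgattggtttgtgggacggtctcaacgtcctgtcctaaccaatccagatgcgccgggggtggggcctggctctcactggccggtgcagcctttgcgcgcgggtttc
The 22 genes with a match had a median log2 fold change of 0.03 between SPOCK1 and vector cells, with a range of -0.15 to 0.17. The 20 genes with a listed promoter and no match had a median of 0.09 and a range of -0.15 to 0.39. No match means only that these letters are not in this window.

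**Figure D1:**
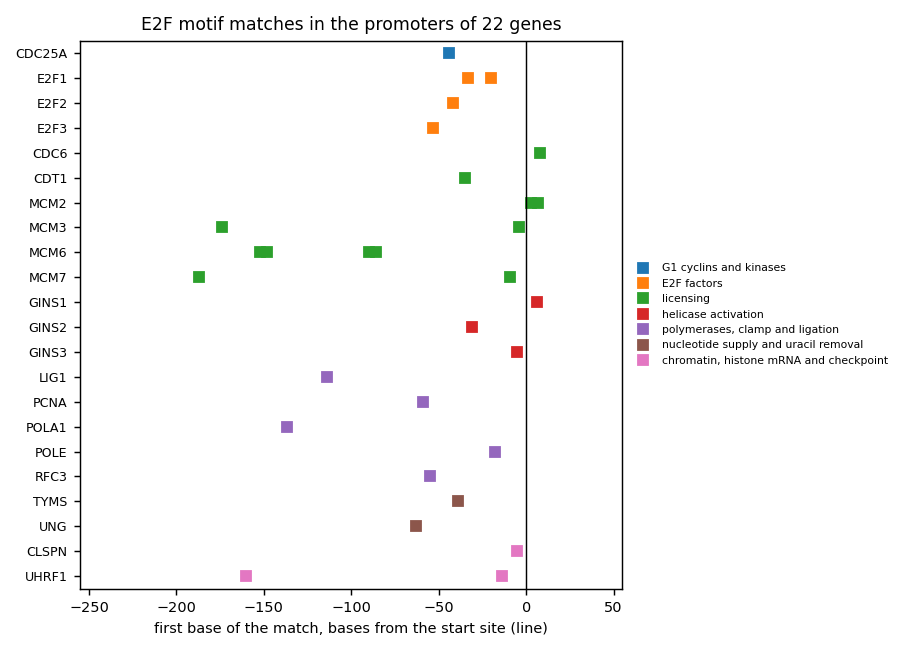
Position of each E2F motif match (squares, coloured by role) in the promoters of the 22 genes that hold one, in bases from the start site on the horizontal axis. Of 30 matches, 20 begin between 60 bases before and 10 bases after the start site.

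Levels between genes were compared as FPKM, which is CPM divided by the deposited gene length in kilobases. The 49 genes had a median of 21.8 FPKM over the 8 libraries, against 3.01 FPKM over all genes tested, and 45 of the 49 lay above that median of all genes. MCM7, a subunit of the replicative helicase, was at the top with 389.1 ± 12.96 FPKM in SPOCK1 cells and 382.6 ± 26.76 in vector cells (SD, n = 4 each). PCNA, the sliding clamp of the polymerases, came next with 278.8 ± 24.0 FPKM in SPOCK1 cells and 279.4 ± 11.4 in vector cells. CCND1, TK1 and CDK4 followed with means over all libraries of 205.0, 144.1 and 95.4 FPKM. MCM7, PCNA, CCND1 and TK1 each stood above the next gene in the order in all 8 libraries, whereas CDK4 overlapped with MCM2 below it. In 40 of the 48 neighbouring pairs of the whole order the libraries overlapped. CCNE2 was the lowest at 0.65 FPKM. Deposited lengths sum all annotated exons, which lowers the FPKM of a gene whose main transcript is shorter than that sum.

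**Figure D2:**
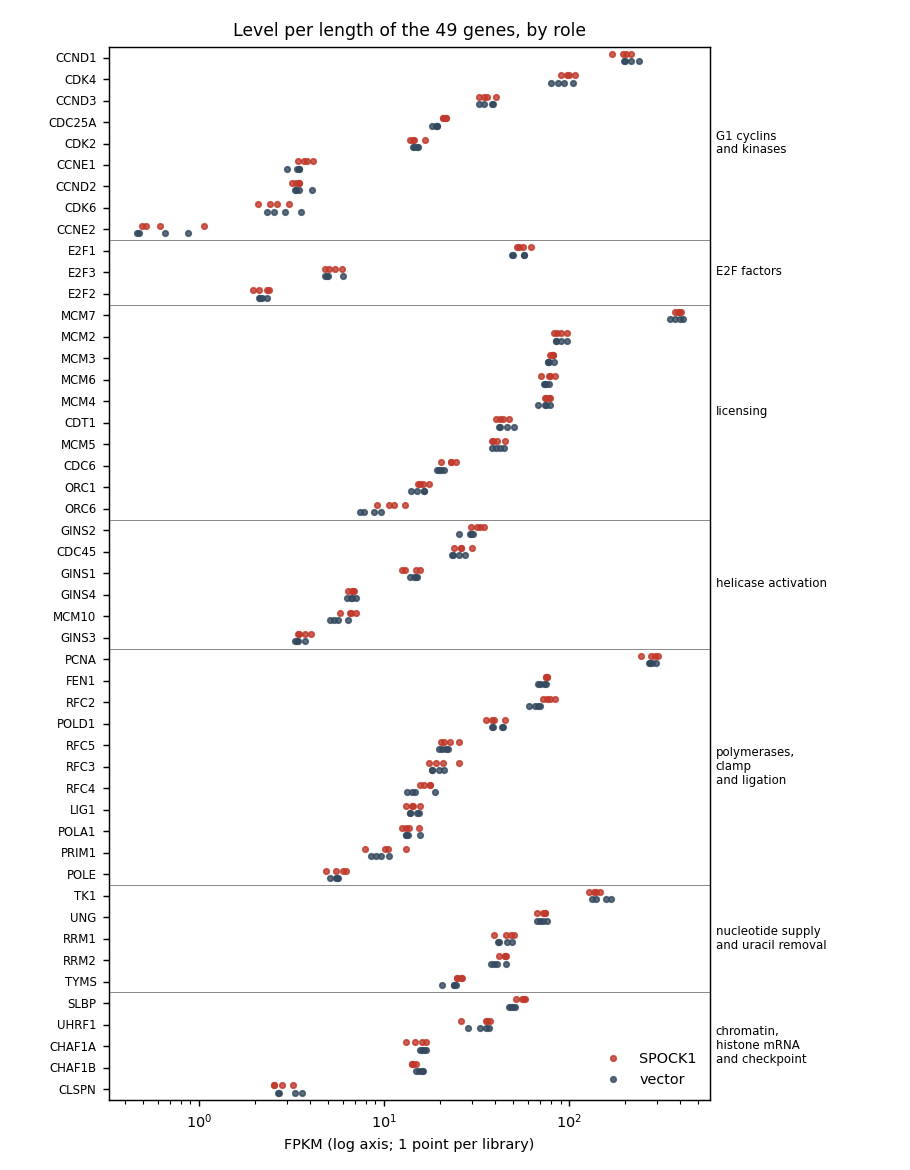
FPKM of the 49 genes on a log axis, grouped by role, with 1 point per library for SPOCK1 cells (red, upper row of each gene) and vector cells (blue, lower row). Levels span CCNE2 at a mean of 0.65 FPKM to MCM7 at 385.8 FPKM, and the groups lie close together for every gene.

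Within families 1 paralog carried most of the signal, and the shares overlapped between the groups. CCND1 made up 83.2% ± 1.2 of the D-cyclin FPKM in SPOCK1 cells and 84.3% ± 1.7 in vector cells (SD, n = 4 each). CCND3 supplied 15.3% ± 1.2 in SPOCK1 cells and 14.3% ± 1.8 in vector cells, and CCND2 supplied 1.44% ± 0.09 in SPOCK1 cells and 1.40% ± 0.09 in vector cells. CDK6 was 2.55% ± 0.57 of CDK4 and CDK6 together in SPOCK1 cells and 3.08% ± 0.91 in vector cells, so CDK4 had the higher FPKM in every library. Binding of either kinase to the D-type cyclins was not measured. E2F1 made up 88.2% ± 1.2 of the FPKM of E2F1, E2F2 and E2F3 in SPOCK1 cells and 87.8% ± 1.5 in vector cells. Of the summed FPKM of MCM2 to MCM7, MCM7 alone took 51.6% ± 0.6 in SPOCK1 cells and 51.6% ± 1.3 in vector cells, although the 6 proteins form a ring with 1 copy of each. Among the other 5 subunits the highest was 2.21 ± 0.03 times the lowest in SPOCK1 cells and 2.17 ± 0.05 times in vector cells.

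Whether some counts belong fully to 1 gene is not known, because exons overlap those of a neighbour and the strand setting of the counting is not given in the sources used here. CDK4 shares 43.2% of its exonic bases with TSPAN31, TYMS 39.15% with ENOSF1 and CCNE2 37.0% with INTS8. These neighbours lie on the opposite strand. On the same strand, RRM2 shares 20.2% with AC007240.1, which had a mean of 24.4 counts per library. PRIM1 shares 1.35% with NACA on the same strand, with means of 923.0 counts for PRIM1 and 14595.1 for NACA. FEN1 shares 1.98% with FADS2 and CHAF1B 1.74% with MORC3, also on the same strand. INTS8 had a mean of 752.0 counts per library against 107.6 for CCNE2, and how reads in the shared bases were counted is not known. TSPAN31 and ENOSF1 had means of 668.2 and 700.5 counts, against 11481.5 for CDK4 and 2289.6 for TYMS. Processed copies of these genes in the table, such as PCNAP4 and RRM2P3, held at most 0.0384% of the counts of their parent gene.

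SPOCK1 libraries were compared with vector libraries gene by gene. In all, 33 of the 49 genes had a positive log2 fold change and 16 were negative, with a median of 0.04, against -0.0042 over all genes tested, of which 49.2% were positive. Directions of genes near 0 depended on the processing, as 66 of 833 values over 17 alternatives had the other sign, in 18 of the 49 genes, and the number of positive genes was 31 to 38. At an unadjusted p under 0.05, 6 of the 49 were higher in SPOCK1 cells and 0 lower, which is 12.2% against 13.7% of all genes tested, where 5.48% were higher and 8.17% lower. These were ORC6, RFC2, SLBP, CDC6, CDC25A and MCM10. The groups did not overlap in 5 genes, 10.2% of the 49 against 8.23% of all genes tested, where 3.43% were higher and 4.8% lower, with CDC25A, RFC2, TYMS and SLBP higher and CHAF1B lower in SPOCK1 libraries. Taken over both directions, these shares are near those of all genes. By direction they are less near. Of the 49 genes 12.2% were higher at the unadjusted threshold, against 5.48% of all genes, and 0 were lower, against 8.17%. Among the 5 genes without overlap 4 were higher and 1 was lower. Whether this balance differs from that of all genes was not tested. The shares over all genes were not matched for expression or precision. The median SE of the log2 fold change was 0.085 for the 49 genes, against 0.128 for all genes tested. Without SPOCK1 library 1 or vector library 3 the median was 0.02. Over all genes the number called was 165 with all libraries and 90, 89 and 96 without SPOCK1 library 2, SPOCK1 library 3 and vector library 2. The 95% interval of the change lay inside 1.3-fold in either direction for 41 of the 49 genes and inside 1.5-fold for 47, that is for all but ORC6 and CCNE2. All 49 intervals lay inside 2-fold.

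**Figure D3:**
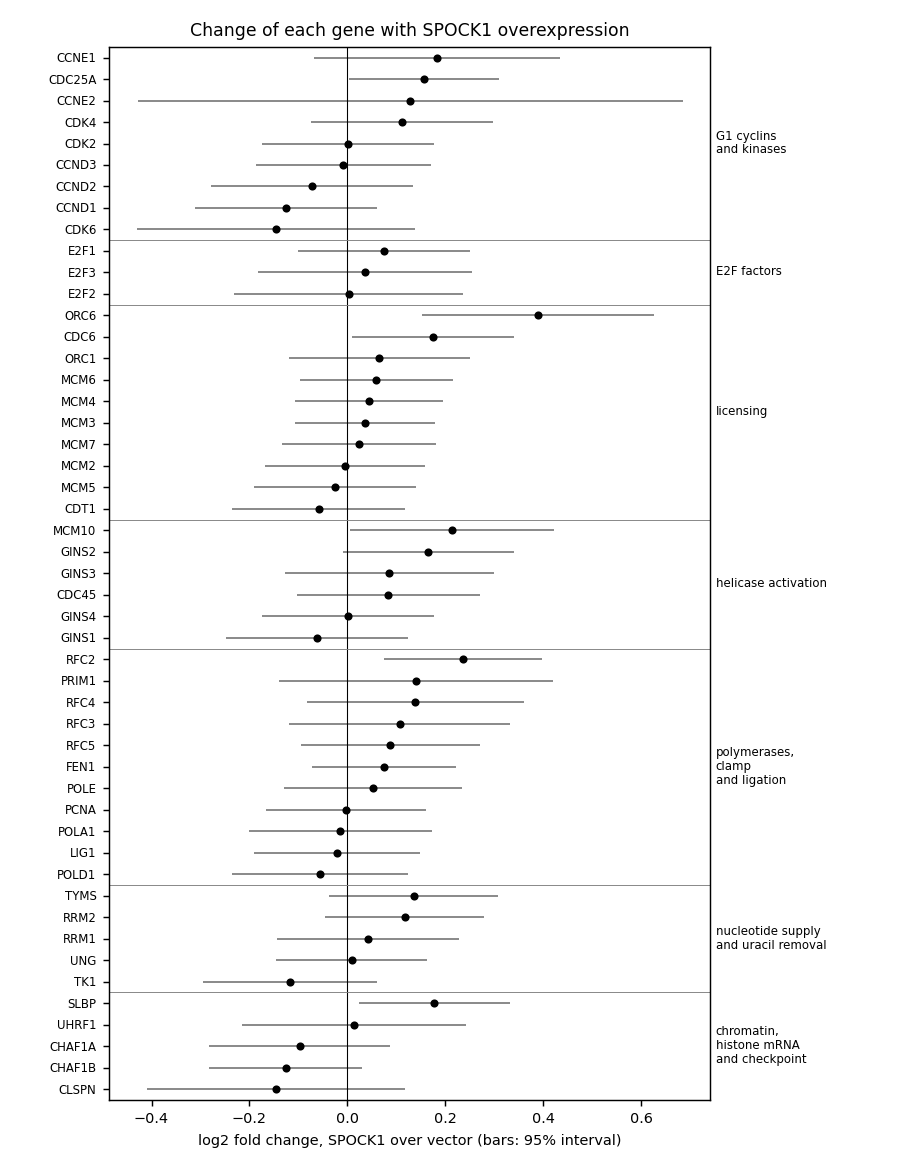
Log2 fold change of each of the 49 genes, SPOCK1 over vector, with its 95% interval (bars), grouped by role. ORC6 at 0.39 and RFC2 at 0.24 lie farthest to the right, and no gene passed an adjusted p of 0.05.

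Among the G1 regulators, 5 of 9 had a positive log2 fold change, 1 of 9 had an unadjusted p under 0.05 and 0 were called. CDC25A (chromosome 3, 48157146 to 48188402) is the phosphatase that removes inhibitory phosphate from CDK2. It had 86.0, 89.7, 86.0 and 88.6 CPM in SPOCK1 libraries 1 to 4, against 74.9, 80.0, 79.2 and 80.1 CPM in vector libraries 1 to 4. All 4 SPOCK1 libraries were above all 4 vector libraries, but the difference was small. The log2 fold change was 0.16 ± 0.07 (SE, 95% interval 0.0042 to 0.31, adjusted p = 0.352). CCNE1, the E-type cyclin that binds CDK2, had 9.47, 9.84, 8.76 and 10.5 CPM in SPOCK1 libraries, against 7.63, 8.83, 8.90 and 8.61 CPM in vector libraries. SPOCK1 library 3 lay within the vector range, and the log2 fold change was 0.18 ± 0.12 (adjusted p = 0.521).

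CCND1 (chromosome 11, 69641087 to 69654474) encodes cyclin D1. It had 820.7, 943.9, 1047.5 and 976.9 CPM in SPOCK1 libraries 1 to 4, against 1160.4, 1047.8, 966.3 and 957.0 CPM in vector libraries. The groups overlapped, with SPOCK1 library 1 the lowest of the 8 and vector library 1 the highest. The log2 fold change was -0.12 ± 0.09 (adjusted p = 0.564), and its 95% interval of -0.31 to 0.06 lay inside 1.3-fold in either direction. The log2 fold change of CCND1 was -0.06 without SPOCK1 library 1 and also without vector library 1. CCND2 and CCND3 differed between the groups by -0.07 ± 0.10 and -0.0086 ± 0.085 on the log2 scale (adjusted p = 0.789 and 0.976). CDK4 had 0.11 ± 0.09, CDK6 -0.15 ± 0.13 and CDK2 0.0017 ± 0.083, with adjusted p of 0.614, 0.677 and 0.995. CCNE2 was poorly measured, at 2.97 ± 1.18 CPM in SPOCK1 cells and 2.71 ± 0.84 CPM in vector cells (SD, n = 4 each), and its 95% interval ran from -0.43 to 0.68.

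The 3 E2F activators did not pass the test. E2F1 (chromosome 20, 33675683 to 33686404) had 131.2, 141.0, 134.7 and 156.3 CPM in SPOCK1 libraries, against 123.3, 143.0, 125.3 and 143.0 CPM in vector libraries. The ranges overlapped and the log2 fold change was 0.07 ± 0.08 (95% interval -0.10 to 0.25, adjusted p = 0.740). E2F3 had 24.8, 28.0, 30.6 and 26.1 CPM in SPOCK1 libraries, against 30.9, 24.8, 25.7 and 25.5 CPM in vector libraries, where library 1 stood apart. E2F2 had 11.5, 10.8, 13.1 and 12.7 CPM in SPOCK1 libraries, against 11.7, 11.6, 11.9 and 12.7 CPM in vector libraries. On the log2 scale E2F3 and E2F2 differed by 0.04 ± 0.10 and 0.0030 ± 0.11 (adjusted p = 0.917 and 0.993).

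**Figure D4:**
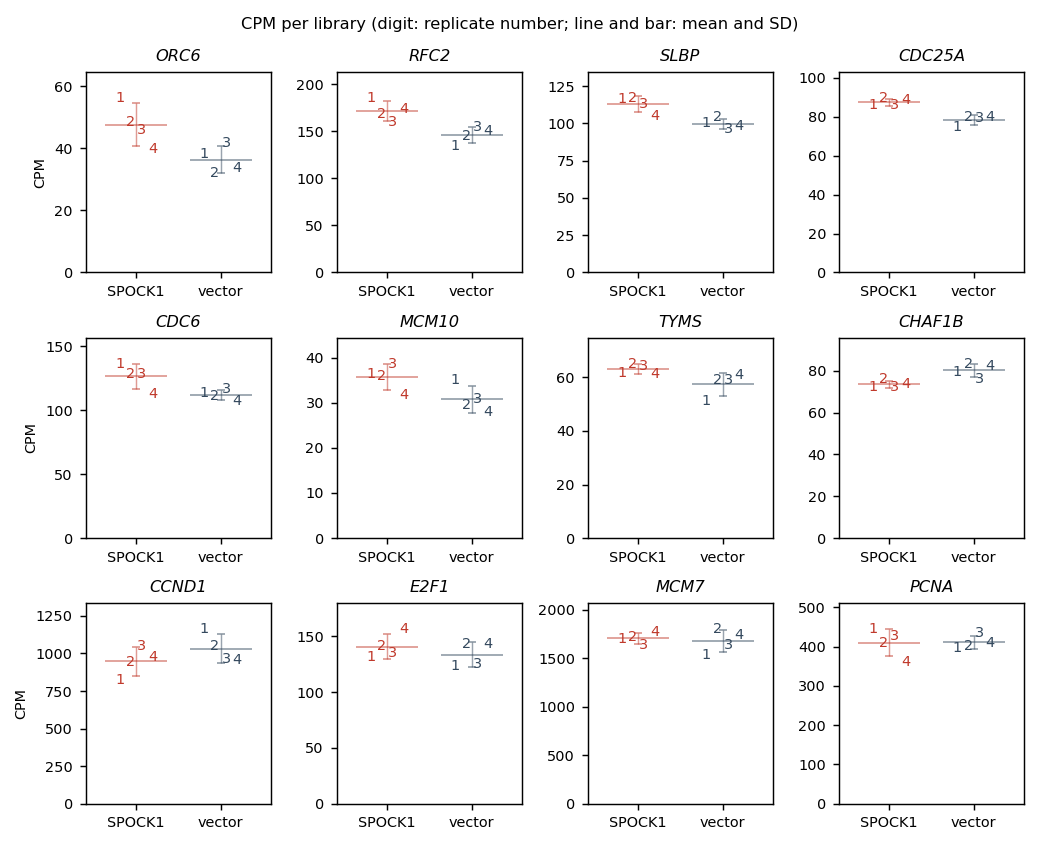
CPM of 12 genes in each library, with the replicate number as the symbol, SPOCK1 libraries in red at the left and vector libraries in dark blue at the right, and lines and bars for the mean and SD (n = 4 each). RFC2, SLBP, CDC25A and TYMS are higher in every SPOCK1 library than in any vector library and CHAF1B is lower, whereas the other 7 genes overlap.

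Of the 10 licensing genes, which load the helicase at origins, 7 had a positive log2 fold change and 0 were called. ORC6 (chromosome 16, 46689643 to 46698394) had 56.1, 48.6, 46.0 and 39.6 CPM in SPOCK1 libraries 1 to 4, against 38.1, 32.1, 41.5 and 33.6 CPM in vector libraries 1 to 4. Only SPOCK1 library 4 lay within the vector range, below vector library 3. Its mean was 47.6 ± 6.84 CPM in SPOCK1 cells and 36.3 ± 4.29 CPM in vector cells (SD, n = 4 each), a 1.31-fold difference. The log2 fold change was 0.39 ± 0.11 (SE, 95% interval 0.15 to 0.63), with an unadjusted p of 0.00303 and an adjusted p of 0.124 by edgeR. ORC6 passed an adjusted p of 0.05 with DESeq2 (0.0354), with no filter beyond 1 count (0.0173), with offsets for GC content and length (0.0348) and without SPOCK1 library 4 (0.0398). The call with the offsets was lost when the replicate block was added (0.0577). DESeq2 called 2.52% of all genes tested (0.716% higher and 1.8% lower). No filter beyond 1 count called 1.39% of the genes it tested, the offsets called 3.91%, and leaving out SPOCK1 library 4 gave 1.47%. These fits called the largest shares of genes among the 17 alternatives. ORC6 did not pass in the other 13 of 17 alternatives, with adjusted p of up to 0.335.

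CDC6, which recruits the helicase to the origin recognition complex, had 136.2, 128.4, 128.5 and 112.7 CPM in SPOCK1 libraries, against 113.5, 110.7, 116.7 and 107.3 CPM in vector libraries. SPOCK1 library 4 was again the one inside the vector range, and the log2 fold change was 0.17 ± 0.08 (adjusted p = 0.335). CDT1, its partner in loading, had -0.06 ± 0.08, and ORC1, the largest origin recognition subunit, had 0.07 ± 0.09 (adjusted p = 0.803 and 0.789). MCM6 had 347.7, 325.5, 322.6 and 292.3 CPM in SPOCK1 libraries, against 322.9, 304.8, 308.6 and 299.9 CPM in vector libraries, and SPOCK1 libraries held both the highest and the lowest value. MCM7 had 1701.6, 1716.6, 1634.6 and 1772.8 CPM in SPOCK1 libraries, against 1535.7, 1799.0, 1633.5 and 1744.7 CPM in vector libraries. The 6 subunits of the ring stayed close to 0: MCM2 -0.0046 ± 0.077, MCM3 0.04 ± 0.07, MCM4 0.04 ± 0.07, MCM5 -0.02 ± 0.08, MCM6 0.06 ± 0.07 and MCM7 0.02 ± 0.07 on the log2 scale (SE). Summed over the 6, FPKM were 754.5 ± 16.6 in SPOCK1 cells and 741.6 ± 34.2 in vector cells (SD, n = 4 each), with overlap.

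Of the 6 genes of helicase activation 5 had a positive log2 fold change and 0 were called. MCM10, which helps the loaded helicase to start unwinding, had 36.4, 35.9, 38.6 and 31.7 CPM in SPOCK1 libraries, against 35.0, 29.4, 30.8 and 27.9 CPM in vector libraries. SPOCK1 library 4 fell below vector library 1, and the log2 fold change was 0.21 ± 0.10 (95% interval 0.005 to 0.42, adjusted p = 0.354). GINS2, a subunit of the GINS complex, had 113.2, 103.4, 95.9 and 107.4 CPM in SPOCK1 libraries, against 83.4, 99.4, 96.7 and 94.9 CPM in vector libraries. One SPOCK1 library, library 3, lay within the vector range, and the log2 fold change was 0.17 ± 0.08 (adjusted p = 0.393). CDC45 had 84.8, 74.2, 67.9 and 74.3 CPM in SPOCK1 libraries, against 66.3, 66.9, 72.7 and 78.2 CPM in vector libraries, with overlap (log2 fold change 0.08 ± 0.09, adjusted p = 0.725). GINS1, GINS3 and GINS4 had -0.06 ± 0.09, 0.09 ± 0.10 and 0.0011 ± 0.083, although the 4 subunits act as 1 complex.

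Among 11 genes of the polymerases, the clamp and ligation, 7 had a positive log2 fold change and 0 were called. RFC2 (chromosome 7, 74231499 to 74254458), a subunit of the clamp loader, had 185.5, 168.3, 160.3 and 173.9 CPM in SPOCK1 libraries 1 to 4, against 134.6, 144.7, 154.3 and 150.3 CPM in vector libraries. Every SPOCK1 library exceeded every vector library. The means were 172.0 ± 10.6 CPM in SPOCK1 cells and 146.0 ± 8.56 CPM in vector cells (SD, n = 4 each). The log2 fold change was 0.24 ± 0.08 (95% interval 0.08 to 0.40, adjusted p = 0.177). With offsets for GC content and length RFC2 was called, at 0.25 ± 0.06 (adjusted p = 0.0227), and in the other 16 alternatives it was not, with adjusted p of 0.0937 to 0.361.

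The other clamp loader subunits in the list, RFC3, RFC4 and RFC5, also had positive values, at 0.11 ± 0.11, 0.14 ± 0.11 and 0.09 ± 0.09 (adjusted p = 0.705, 0.593 and 0.702). Summed over RFC2 to RFC5, FPKM were 152.6, 134.3, 132.1 and 132.3 in SPOCK1 libraries, against 115.1, 120.0, 131.6 and 120.1 in vector libraries. The ranges just missed each other, with means of 137.8 in SPOCK1 cells and 121.7 in vector cells. Of all family sums, shares and ratios computed, only this sum did not overlap between the groups. RFC2 had the highest FPKM of the 4 subunits, at a mean of 77.8 in SPOCK1 cells and 66.0 in vector cells. RFC4 had 53.4, 49.2, 52.9 and 46.8 CPM in SPOCK1 libraries, against 44.3, 42.7, 56.7 and 40.1 CPM in vector libraries, where library 3 was the highest of all 8. FEN1, the flap endonuclease of lagging-strand synthesis, had 188.4, 184.9, 187.8 and 186.8 CPM in SPOCK1 libraries, against 168.8, 172.7, 186.4 and 182.3 CPM in vector libraries (log2 fold change 0.07 ± 0.07, adjusted p = 0.680). The SPOCK1 values of FEN1 lay close together, 1 of them inside the vector range at 184.9 CPM and the others just above its top of 186.4 CPM.

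PCNA (chromosome 20, 5114953 to 5126626) had 443.9, 408.2, 426.7 and 361.8 CPM in SPOCK1 libraries, against 397.3, 401.5, 434.7 and 410.3 CPM in vector libraries. SPOCK1 libraries spanned the whole vector range, and the log2 fold change was -0.0028 ± 0.078 (95% interval -0.17 to 0.16, adjusted p = 0.992). The catalytic subunits of the replicative polymerases, POLA1, POLD1 and POLE, had -0.01 ± 0.09, -0.06 ± 0.08 and 0.05 ± 0.09. PRIM1, the catalytic primase subunit, had 0.14 ± 0.13, and LIG1, which joins Okazaki fragments, had -0.02 ± 0.08 (adjusted p = 0.689 and 0.940).

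Genes of nucleotide supply and uracil removal gave 4 positive log2 fold changes of 5, with 0 called and 0 at an unadjusted p under 0.05. TYMS, thymidylate synthase, had 61.5, 65.1, 64.2 and 61.3 CPM in SPOCK1 libraries, against 51.0, 58.9, 58.9 and 60.7 CPM in vector libraries. The groups did not overlap, by less than 1 CPM between the nearest libraries, and the log2 fold change was 0.14 ± 0.08 (adjusted p = 0.491). RRM2, the regulated subunit of ribonucleotide reductase, had 242.8, 239.2, 239.8 and 221.9 CPM in SPOCK1 libraries, against 242.8, 217.6, 208.7 and 200.8 CPM in vector libraries, and its partner RRM1 had a log2 fold change of 0.04 ± 0.09. TK1, thymidine kinase, was the one with a negative value. It had 260.0, 254.6, 239.6 and 274.8 CPM in SPOCK1 libraries, against 246.5, 312.1, 261.6 and 295.8 CPM in vector libraries (log2 fold change -0.12 ± 0.08, adjusted p = 0.571), and UNG, the uracil glycosylase, had 0.0086 ± 0.073.

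In the group of chromatin, histone mRNA and checkpoint genes, 2 of 5 log2 fold changes were positive and 0 genes were called. SLBP, which binds the stem-loop of histone mRNAs, had 116.2, 117.0, 113.3 and 105.0 CPM in SPOCK1 libraries, against 100.5, 104.0, 96.3 and 98.4 CPM in vector libraries. The ranges were separated by about 1 CPM, and the log2 fold change was 0.18 ± 0.07 (95% interval 0.02 to 0.33, adjusted p = 0.302). CHAF1B, a subunit of the chromatin assembly factor that places histones on new DNA, had 72.3, 75.8, 72.2 and 73.4 CPM in SPOCK1 libraries, against 79.2, 83.3, 76.0 and 82.1 CPM in vector libraries. It was the one gene of the 49 below all vector libraries in every SPOCK1 library, with a log2 fold change of -0.13 ± 0.07 (adjusted p = 0.476). CHAF1A, the other subunit listed, had -0.10 ± 0.09 (adjusted p = 0.666). CLSPN, an adaptor of the replication checkpoint, had 13.8, 15.2, 17.5 and 13.8 CPM in SPOCK1 libraries, against 19.5, 14.7, 18.0 and 14.6 CPM in vector libraries. UHRF1, which guides maintenance methylation, had 0.01 ± 0.11 (adjusted p = 0.970), with 134.1, 182.3, 185.9 and 191.9 CPM in SPOCK1 libraries, against 182.1, 189.4, 146.1 and 170.2 CPM in vector libraries.

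Values of the 49 genes moved with the library and with GC content. Over the 49 genes the median deviation from a gene's own mean was 0.01, 0.02, 0.04 and 0.0057 in SPOCK1 libraries 1 to 4, against -0.06, -0.03, -0.03 and -0.03 in vector libraries 1 to 4 (log2 CPM). SPOCK1 library 1 held the highest value of 17 genes and the lowest value of 13. Vector library 1 also held the lowest value of 13 genes, and the highest of 6. SPOCK1 library 4 held the highest value of 10 genes and the lowest of 7. The GC trend of a library, the median deviation of the fifth of genes with the highest GC content minus that of the lowest, was -0.28, 0.03, -0.18 and 0.27 in SPOCK1 libraries, against -0.14, 0.20, -0.16 and 0.24 in vector libraries. The 16 genes of the 49 with the lowest GC content (36.9% to 45.5%) had median deviations of 0.14, 0.0086, 0.09 and -0.13 in SPOCK1 libraries, against 0.05, -0.07, 0.0073 and -0.09 in vector libraries. The 16 with the highest GC content (53.6% to 65.0%) had -0.10, 0.0096, -0.03 and 0.13 in SPOCK1 libraries, against -0.08, 0.09, -0.05 and 0.06 in vector libraries, so the 2 sets deviated in opposite directions in every library except SPOCK1 library 2.

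With offsets for GC content and length in each library, 2 of the 49 genes were called, both higher in SPOCK1 cells, against 3.91% of all genes tested, with 364 genes (2.31%) higher and 254 (1.61%) lower. The genes were ORC6 at 0.38 ± 0.09 and RFC2 at 0.25 ± 0.06 (SE, adjusted p = 0.0348 and 0.0227). POLE and CDC25A came next at 0.21 ± 0.06 and 0.18 ± 0.05 (adjusted p = 0.0571 and 0.0775). When the replicate number was added as a block to these offsets, 0 of the 49 genes were called, with adjusted p of 0.0577 for ORC6 and 0.0937 for RFC2. That fit called 208 genes over all, 1.32% of those tested, with 96 (0.608%) higher and 112 (0.709%) lower. With the offsets 38 of the 49 genes were positive, with a median of 0.07, beside a median of 0.03 over all genes.

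**Figure D5:**
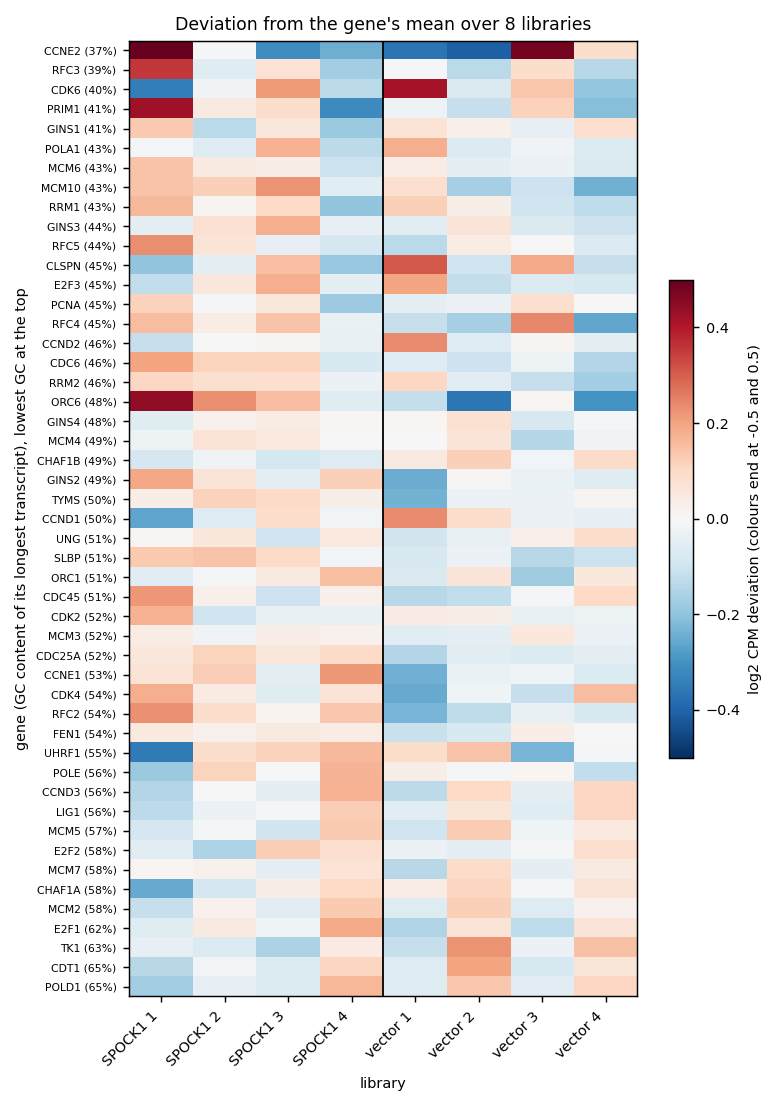
Deviation of log2 CPM from the gene's mean over the 8 libraries for the 49 genes (rows, ordered by the GC content of the longest transcript, lowest at the top), SPOCK1 libraries left of the line and vector libraries right of it. Genes of low GC content are mostly above their mean in SPOCK1 library 1 and below it in SPOCK1 library 4, and genes of high GC content show the opposite.

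Of 10 inhibitors of the G1/S step that were tested, CDK inhibitors and proteins of the retinoblastoma family, 1 fell and 0 rose, and 8 of them were negative in log2 fold change (median -0.06). For comparison, 0.798% of all genes tested were called lower and 0.247% higher, and 49.2% had a positive log2 fold change. CDKN1C (chromosome 11, 2883213 to 2885773), a CDK inhibitor of the Cip/Kip family, had 17.2, 18.1, 17.3 and 19.2 CPM in SPOCK1 libraries, against 23.3, 28.3, 25.3 and 25.6 CPM in vector libraries. All SPOCK1 libraries were below all vector libraries. It fell by 0.51 ± 0.10 on the log2 scale (SE, adjusted p = 0.0138, edgeR), to 18.0 ± 0.91 CPM in SPOCK1 cells, against 25.6 ± 2.05 CPM in vector cells (SD, n = 4 each). The call was lost without SPOCK1 library 2 or 3 or vector library 2 (adjusted p = 0.0579, 0.0652 and 0.0702). With offsets for GC content and length the change of CDKN1C was smaller, at -0.41 ± 0.08, and still called (adjusted p = 0.0055). CDKN1A, of the same family, had 98.0, 100.8, 95.7 and 113.6 CPM in SPOCK1 libraries, against 107.4, 128.0, 112.2 and 125.6 CPM in vector libraries, and did not pass (log2 fold change -0.21 ± 0.08, adjusted p = 0.286). RB1, the retinoblastoma protein, and CDKN2A, an inhibitor of CDK4 and CDK6, had -0.20 ± 0.11 and -0.01 ± 0.09 (adjusted p = 0.448 and 0.970). RB1 was at -0.13 without SPOCK1 library 4 and -0.12 without vector library 1.

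Among 56 further G1/S and replication genes 0 were called by edgeR, and the median log2 fold change was 0.02. Of the 56, 1 had an unadjusted p under 0.05, or 1.79%, against 13.7% of all genes tested. That gene was TFDP1, the dimerization partner of E2F factors, with 217.9, 211.8, 229.9 and 221.5 CPM in SPOCK1 libraries, against 187.4, 187.9, 183.5 and 191.0 CPM in vector libraries. The groups were well separated (log2 fold change 0.23 ± 0.07, adjusted p = 0.127), and DESeq2 and the GC content and length offsets called it (adjusted p = 0.0389 and 0.0405), and the offsets with the replicate block did not (adjusted p = 0.125). TICRR, a factor of origin firing, came next at -0.29 ± 0.14 (adjusted p = 0.374), and at -0.16 without SPOCK1 library 1. Of 28 mitosis genes 0 were called by edgeR, 3 had an unadjusted p under 0.05 (10.7%, against 13.7% of all genes tested) and the median was -0.03. KIF20A, a kinesin of cytokinesis, had 129.3, 132.1, 129.8 and 134.1 CPM in SPOCK1 libraries, against 152.8, 147.9, 146.5 and 144.7 CPM in vector libraries (log2 fold change -0.17 ± 0.07, adjusted p = 0.291). CENPE and CENPF, which act at kinetochores, had -0.44 ± 0.18 and -0.36 ± 0.17 (adjusted p = 0.309 and 0.357). CENPE was at -0.24 without vector library 3, and CENPF at -0.19 without SPOCK1 library 1 and -0.24 without vector library 1.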

How the data were processed

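Libraries were made from total RNA with a NEBNext Ultra kit, per the labels' protocols. The authors deposited 1 table of raw read counts per gene for the 8 libraries. The submitters' processing notes name CASAVA, HISAT2 2.0.5 and featureCounts 1.5.0-p3. The start, end and strand of all 58735 gene IDs were identical to those of GENCODE 29 on GRCh38. Genes were kept by edgeR's filterByExpr (minimum count 10, minimum total 15) and tested with edgeR 4.0.16 in R 4.3.3 (TMM factors, quasi-likelihood F test, Benjamini-Hochberg adjustment over 15790 genes, called at an adjusted p under 0.05). CPM of single genes were computed on TMM-scaled totals and FPKM from them with the deposited gene length. The marker sums in CPM used library totals without TMM factors. A log2 fold change is SPOCK1 over vector, and its SE is its size divided by the square root of F. Every gene of the 49 is named. From the other lists the text names called genes and those with the lowest p. TICRR, CDKN1A, CENPF, RB1, CDKN2A, CDH1, VIL1, CDX2 and the family shares were picked with their values in view. The 49 genes and all lists were chosen with earlier results of these data known. Alternatives were DESeq2 1.42.0, limma-voom 3.58.1, scaling by RLE or upper quartiles, other filters, a replicate block, GC content and length offsets (natural splines, 5 degrees of freedom), and leaving out each library. The GC content of a gene is that of its longest GENCODE transcript. The scripts were tested on simulated counts. No pair of libraries of a group agreed within sampling noise (lowest chi-square per degree of freedom 9.62). Intervals cover the spread between libraries and not the choice of cells.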

Additional observations from a re-analysis of the deposited data

Results flagged for a closer look

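In 98 groups of 4 libraries, 49 genes in each of the SPOCK1 and vector groups, 2 had a library far from the other 3 by Dixon's test, where chance flags about 1 in 20 groups. UHRF1 was at 134.1 CPM in SPOCK1 replicate 1, against 182.3 to 191.9 CPM in the other 3 SPOCK1 libraries. E2F3 was at 30.9 CPM in vector replicate 1, against 24.8 to 25.7 CPM in the other 3 vector libraries. Neither gene passed the test between the groups.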

How the results depend on the processing

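Of 833 values of single genes among the 49 under the 17 alternatives, 828 stayed on their side of the threshold and 5 became calls. The log2 fold change had the other sign in 66 of them, in 18 genes, none called in either fit. The 5 were ORC6 with DESeq2, with no filter beyond 1 count, with GC content and length offsets and without SPOCK1 replicate 4, and RFC2 with the offsets. Of the 49 genes 0 were called in the reported fit, 1 with DESeq2, 1 with no filter beyond 1 count, 2 with the offsets, 0 with the offsets and the replicate block, and 0 to 1 when a library was left out. Over all genes 165 were called, or 1.04% of those tested. DESeq2 called 398 (2.52%), no filter beyond 1 count gave 399 (1.39%) and the offsets gave 618 (3.91%). With the offsets and the replicate block 208 were called (1.32%), and 89 to 237 (0.553% to 1.47%) when a library was left out. The other G1/S and replication genes gave 0 calls, and 1 with DESeq2 and 1 with the offsets. The inhibitors gave 1 call, and 0 to 1 when a library was left out. The G2/M genes gave 0 calls, and 1 with no filter beyond 1 count, CENPF, which was lower in SPOCK1 cells (adjusted p = 0.0165). The median log2 fold change of the 49 was 0.0425, and 0.0664 with the offsets, 0.0682 with the offsets and the replicate block, and 0.0191 to 0.0550 when a library was left out. As TPM the median level was 72.4, against 21.8 FPKM, since TPM is scaled to a fixed sum. The causes of the other changes were not tested.

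Replicate numbers are shared between the groups, but libraries with the same number did not deviate together (correlations of -0.07, 0.03, 0.03 and 0.08 for numbers 1 to 4). With the replicate block 115 genes were called, 0 of them among the 49, and the adjusted p was 0.118 for ORC6, 0.235 for RFC2 and 0.0279 for CDKN1C.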
